A study of Mus musculus with 12 samples.

Results

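Voltage-gated calcium and sodium channels were followed in the main olfactory epithelium (MOE) of mice after unilateral naris occlusion (UNO), the surgical closure of 1 nostril. Members were taken by name from the array's annotation: a probe set with exactly 1 gene symbol that begins with Cacn, or with Scn followed by digits and a or b. Where a gene had several such probe sets, it was represented by the brightest of them on average over the 12 arrays. This gave 35 genes out of 19938 with a probe set of 1 symbol. Of the 35, 24 encode calcium channel subunits or the related gamma proteins and 11 encode sodium channel subunits.

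RNA came from the MOE of H2be-KO mice and WT mice, with the closed and the open side taken apart, and each of the 4 groups held 3 samples. In H2be-KO mice (KO below) the coding sequence of the olfactory histone variant H2be is replaced by a Gap43-mCherry reporter. All groups, the open sides included, came from animals whose right nostril was cauterised at 2 weeks of age under isoflurane with 0.05 mg/kg buprenorphine, so the open side is the unblocked side of an operated animal. Tissue was taken after 3 weeks of occlusion, at 5 weeks of age by the titles of the samples, whereas their age tag reads 6 months. By the design text each sample pooled 2 mice, a female and a male. The legends of the study give a different pool size. Nothing ties the open and closed samples of 1 number to the same mice, and p-values measure only the spread between these samples.

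Channels of this superfamily share a plan. A large alpha subunit forms the pore, and smaller subunits set how many channels reach the membrane and how they gate. In an olfactory sensory neuron (OSN), odorants open cyclic nucleotide-gated and chloride channels in the cilia, sodium channels turn that current into action potentials, and calcium channels in the axon terminal trigger transmitter release onto the olfactory bulb. T-type calcium channels open near rest and help a cell reach threshold. The proteins of the Cacng genes include a skeletal muscle calcium channel subunit and proteins that escort AMPA-type glutamate receptors.

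Values are log2 levels, 1 per probe set and array, as the authors' summary gave them, and a change is a difference of log2 means. A change counts as called where the Benjamini-Hochberg adjusted p over all 32615 probe sets with a mean log2 level above 5 was under 0.05 in limma. All 35 channel genes lay above that filter, several of them below the median of the arrays. Group means were 5.47 to 5.77 for Cacna1s and 5.64 to 6.27 for Cacna2d4. Whether such dim genes are expressed in the MOE was not tested. Genes are not ranked by level, since probes differ in how brightly they bind. Sums and differences of genes within an array serve only to compare the groups, and bright genes weigh most in a linear sum. In bulk tissue, fewer cells of a type and less RNA per cell cannot be told apart. Array medians lay between 7.21 and 7.30, and the median standard error was 0.134 for a change in 1 genotype and 0.0945 for the average over both. Over 10 markers of mature OSNs, the mean log2 level was 11.5 to 11.6 in the closed samples and 11.2 to 11.3 in the open samples. H2be itself, listed as H2bc21, lay lower in every KO array than in every WT array of the same side, by -0.26 on the open side (adjusted p = 0.641) and -0.27 on the closed side (adjusted p = 0.999), and neither difference passed. Whether its probes lie in the replaced sequence is not given in the sources used here.

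The effect of UNO on these channels was the first question. In the closed samples of both genotypes, Cacna1b, the pore of the N-type calcium channel that serves transmitter release at many nerve terminals, was higher than in the open samples. The sodium channel genes Scn4b, Scn3a and Scn3b were lower. On average over both genotypes, Cacna1b was 1.56-fold higher, Scn4b 1.71-fold lower, Scn3a 1.53-fold lower and Scn3b 1.43-fold lower. The other 31 genes were not called in any of these comparisons. In KO mice 1 of 35 genes was called higher and 3 lower, against 0.705% and 0.34% of all probe sets. WT mice had the same counts and the same 4 genes, against 0.475% and 0.38% of all probe sets. Over both genotypes these 4 genes were called again, and there 1.66% of probe sets were called higher and 1.23% lower. At an unadjusted p under 0.05, 13 of 35 genes passed in KO mice, 12 in WT mice and 16 on average, against 10.5%, 9.34% and 13.2% of all probe sets in the same comparisons.

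Cacna1b was the calcium channel pore with the largest rise. Its log2 level was 10.59, 10.44 and 10.35 on the closed side of KO mice, against 9.67, 9.66 and 9.79 on their open side. WT mice had 10.40, 10.33 and 10.26 on the closed side and 9.78, 9.84 and 9.78 on the open side. Every closed sample of either genotype lay above every open sample. The change was 0.75 in KO mice (adjusted p = 0.0019), 0.53 in WT mice (adjusted p = 0.017) and 0.64 on average, with a 95% interval of 0.51 to 0.78 (adjusted p = 1.8e-04). The WT call was lost without replicate 1 or 3 of WT open, or 1 or 2 of WT closed (adjusted p up to 0.0863), and the KO and average calls held with any single array left out.

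Scn4b, an auxiliary beta subunit known in other neurons for a role in resurgent sodium current, had the largest fall. Its log2 level was 9.01, 9.14 and 9.02 on the KO closed side, against 9.84, 9.98 and 9.79 on the KO open side. In WT samples it was 9.07, 8.93 and 9.23 when closed and 9.81, 9.76 and 9.87 when open. Closed and open samples were separated by more than the spread within either side. The change was -0.81 in KO mice (adjusted p = 0.0022), -0.74 in WT mice (adjusted p = 0.0046) and -0.77 on average (95% interval -0.93 to -0.62, adjusted p = 9.3e-05). All of these calls held with any single array left out.

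Cacna1b and Scn4b, at the opposite ends of the range, are shown by their start regions, 300 bases each around the gene start in RefSeq, most of them upstream on the GRCm38.p6 build. The Cacna1b window is chr2:24763103-24763402 on the minus strand and the Scn4b window is chr9:45138374-45138673 on the plus strand, both printed 5′ to 3′ along the gene. Capitals mark matches on either strand to the cyclic AMP response element TGACGTCA, its short form TGACG, the core CCCNNGGG of sites for the olfactory factor Olf-1/Ebf, and the GC box GGGCGG. The short form lies within the full element, so a full match would also count as a short one.
Cacna1b: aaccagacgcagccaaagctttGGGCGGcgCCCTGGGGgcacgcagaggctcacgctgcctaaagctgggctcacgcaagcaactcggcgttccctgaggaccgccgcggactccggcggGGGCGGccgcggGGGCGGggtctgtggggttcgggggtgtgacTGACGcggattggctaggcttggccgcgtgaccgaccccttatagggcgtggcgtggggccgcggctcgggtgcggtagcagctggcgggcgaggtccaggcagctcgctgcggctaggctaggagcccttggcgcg
Scn4b: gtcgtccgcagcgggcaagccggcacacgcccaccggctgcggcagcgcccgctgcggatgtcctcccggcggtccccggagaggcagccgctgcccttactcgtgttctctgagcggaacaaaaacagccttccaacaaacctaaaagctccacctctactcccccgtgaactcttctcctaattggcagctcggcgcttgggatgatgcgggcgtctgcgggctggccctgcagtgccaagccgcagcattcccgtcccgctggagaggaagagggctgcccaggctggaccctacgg
The Cacna1b window held 3 GC boxes, 1 short element and 1 Olf-1/Ebf core, and the Scn4b window held none of the 4 motifs. GC content was 72.3% for Cacna1b and 66.3% for Scn4b, with a median of 52.7% over the 32851 windows of that length in the table. Of those windows, 35.7% held a GC box, 20.8% the short element, 13.7% the Olf-1/Ebf core and 1.8% the full element. The table held 37 windows of 27 of the 35 genes, of which 14 held a GC box, 7 the Olf-1/Ebf core, 6 the short element and 0 the full element. A match in these letters is not a measured binding site.

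Scn3a and Scn3b fell together with Scn4b. Scn3a encodes a pore that is best known from embryonic and injured neurons, and Scn3b a beta subunit that couples to such pores. For Scn3a the log2 level was 8.70, 8.49 and 8.63 on the KO closed side and 9.27, 9.14 and 9.32 on the KO open side. WT closed samples had 8.86, 8.66 and 8.84, against 9.44, 9.16 and 9.54 in WT open samples. All closed samples lay below all open ones, with open samples of WT mice the most spread. Its change was -0.64 in KO mice (adjusted p = 0.024), -0.59 in WT mice (adjusted p = 0.037) and -0.62 on average (adjusted p = 0.0013). The WT call was lost when any array other than WT open 2 was left out (adjusted p up to 0.165) and the KO call when any of the 6 KO arrays was left out (adjusted p up to 0.113), whereas the call on average held in each case.

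Scn3b had 10.46, 10.49 and 10.44 on the KO closed side, against 10.98, 10.99 and 10.93 on the KO open side. WT values were 10.41, 10.47 and 10.60 on the closed side and 11.05, 10.96 and 11.05 on the open side. The SD within a group was at most 0.0949, and the 2 sides did not overlap. The fall was -0.50 in KO mice (adjusted p = 0.012), -0.52 in WT mice (adjusted p = 0.011) and -0.51 on average (adjusted p = 4.1e-04). The KO call was lost without replicate 1 or 2 of KO open, or 1 or 3 of KO closed (adjusted p up to 0.0738). Without replicate 1 or 3 of WT open, or 1 or 2 of WT closed, the WT call was lost (adjusted p up to 0.0665).

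**Figure D1:**
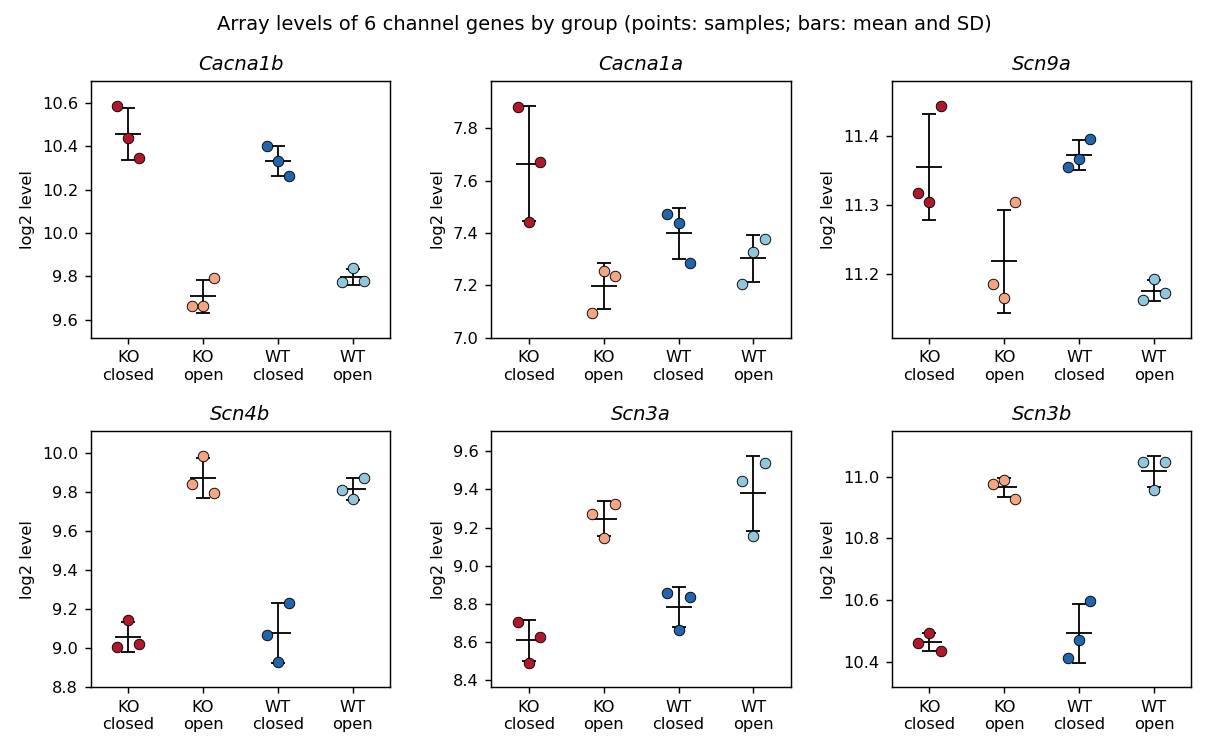
Log2 array level (y axis, a separate scale for each gene) of 6 channel genes in the KO closed, KO open, WT closed and WT open groups. Points are the 3 samples of a group and bars are the mean and SD; Cacna1b and Scn9a sit higher and Scn4b, Scn3a and Scn3b lower in every closed sample than in the open samples of the same genotype, while Cacna1a overlaps in WT mice.

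Scn9a is the sodium channel pore on which transmitter release from mouse OSNs depends. Its log2 level was 11.32, 11.31 and 11.44 on the KO closed side and 11.19, 11.17 and 11.30 on the KO open side. In WT mice the closed samples had 11.35, 11.37 and 11.40 and the open samples 11.16, 11.19 and 11.17. The 2 sides did not overlap in either genotype, though narrowly in KO mice, and the change was 0.14 in KO mice, 0.20 in WT mice and 0.17 on average (adjusted p = 0.18), and was not called. The same gene's other probe set changed by 0.20 on average.

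Within each array, the log2 difference between Scn3a and Scn9a was lower on the closed side by -0.77 in KO mice and -0.79 in WT mice. The difference between Scn4b and Scn3b was lower by -0.31 in KO mice and -0.21 in WT mice. These pairs were chosen after their values had been seen, and the differences are given with no test.

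Among the other sodium channel genes, the direction was mixed. Scn1a, the pore of many fast-spiking neurons, changed by -0.42 in KO mice and -0.40 in WT mice, or -0.41 on average (adjusted p = 0.075). Scn8a, a pore concentrated at the axon initial segment, changed by -0.25 on average (adjusted p = 0.10). Scn10a changed by -0.20, Scn7a by 0.21, Scn11a by 0.01 and Scn2a by -0.03 on average. The third measured beta subunit, Scn2b, had -0.31 in KO mice and 0.31 in WT mice, and the difference between the genotypes of -0.62 was not called (adjusted p = 0.9998). Of the 8 alpha subunit genes, 5 had a negative and 3 a positive change on average. Of these genes 1, Scn3a, was called lower on average, against 1.23% of all probe sets.

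Several of these genes lie side by side. Scn3a, Scn2a, Scn1a, Scn9a and Scn7a occupy a stretch of 8 protein-coding genes on chromosome 2 in the RefSeq order, with Csrnp3, Galnt3 and Ttc21b between Scn2a and Scn1a. Within that stretch, the average changes ran from -0.62 for Scn3a to 0.21 for Scn7a. Scn2b and Scn4b are neighbours on chromosome 9, and their average changes were 0.00 and -0.77. The 3 probe sets that carry symbols of more than 1 of these genes were left out of the members. The one shared by Scn3a and Scn1a changed by -0.61 in KO mice, -0.56 in WT mice and -0.59 on average (adjusted p = 4.5e-04). The one shared by Scn2a, Scn9a and Scn3a changed by -0.35 on average (adjusted p = 0.021), and the one shared by Scn9a and Scn3a by 0.09 (adjusted p = 0.60). Which gene a shared probe set read cannot be told apart.

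Scn2a had 14 probe sets of its own, and they did not move as 1. Their average changes ran from -0.41 to 0.24, with 8 positive and 6 negative, and 1 was called lower, against 1.23% of all probe sets. The brightest, used here, changed by -0.03. Both probe sets of Cacna2d1 were higher on the closed side in each genotype, by 0.20 and 0.24 on average, and only the dimmer one was called. Cacng2 had 1 positive and 1 negative probe set, neither called.

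**Figure D2:**
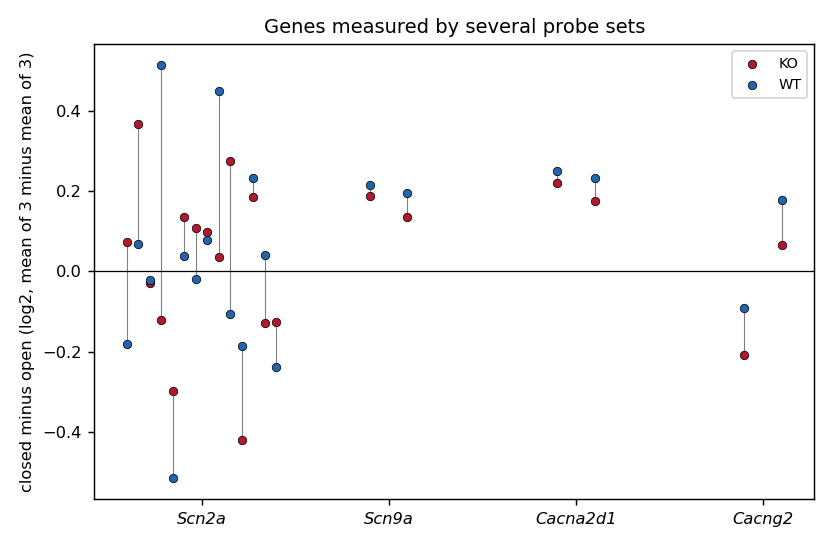
Closed minus open change (y axis, log2) of every probe set of the 4 genes with several, with a point for KO and a point for WT joined by a line. The 14 probe sets of Scn2a spread on both sides of 0, both probe sets of Scn9a and of Cacna2d1 lie above 0 in both genotypes, and those of Cacng2 lie on opposite sides.

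Of the 7 pores of high-voltage-activated calcium channels, 1, Cacna1b, was called higher in KO mice, in WT mice and on average. The shares of all probe sets called higher were 0.705%, 0.475% and 1.66%. Cacna1a, the pore of the P/Q-type channel of nerve terminals, had 7.88, 7.44 and 7.67 on the KO closed side, against 7.09, 7.26 and 7.24 on the KO open side. WT values were 7.47, 7.44 and 7.29 when closed and 7.21, 7.33 and 7.38 when open. The sides were apart in KO mice and overlapped in WT mice. Its change was 0.47 in KO mice (adjusted p = 0.11) and 0.09 in WT mice (adjusted p = 0.91), and the difference between the genotypes of 0.37 was not called (adjusted p = 0.9998, 0.042 unadjusted). Within arrays, the difference between Cacna1b and Cacna1a was higher on the closed side by 0.28 in KO mice and 0.44 in WT mice, a pair also chosen after its values had been seen and not tested.

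No L-type pore was called. Cacna1d, a neuronal and endocrine L-type pore, had 9.54, 9.48 and 9.31 on the KO closed side and 9.15, 9.19 and 9.25 on the KO open side. WT samples had 9.53, 9.51 and 9.51 when closed and 9.36, 9.33 and 9.22 when open. The sides did not overlap, and the average change of 0.23 was not called (adjusted p = 0.074). It was called under 2 of 20 alternatives, 1 of them the test of probe sets with a mean log2 level above 7 alone (adjusted p = 0.028).

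Cacna1c, the L-type pore of heart, smooth muscle and neurons, had 7.13, 7.01 and 6.81 on the KO closed side and 6.89, 7.29 and 7.15 on the KO open side. In WT samples it was 6.77, 6.88 and 6.84 when closed and 7.09, 7.27 and 7.40 when open. The sides were apart in WT mice alone, and the average change was -0.27 (adjusted p = 0.16). Cacna1f, the L-type pore of photoreceptor terminals, was singled out after its values were seen, since its sides did not overlap in either genotype. Its levels all lay below the array medians, at 6.28 to 6.65 on the KO closed side and 6.02 to 6.26 on the KO open side. In WT mice they were 6.16 to 6.51 when closed and 5.89 to 6.09 when open. It changed by 0.33 on average (adjusted p = 0.090). Cacna1e and Cacna1s had average changes of 0.01 and -0.01.

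All 3 T-type pores had a positive change in both genotypes and none was called. Cacna1h had 10.01, 9.88 and 9.78 on the KO closed side and 9.59, 9.69 and 9.65 on the KO open side. WT closed samples had 9.87, 9.86 and 9.84 and WT open samples 9.74, 9.82 and 9.68. Closed lay above open within each genotype, by 0.25 in KO mice and 0.11 in WT mice, and by 0.18 on average (adjusted p = 0.18). Cacna1g changed by 0.27 in KO mice and 0.01 in WT mice, and Cacna1i by 0.36 and 0.09.

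No accessory calcium channel gene was called by its brightest probe set. Cacna2d1, an alpha2delta subunit that raises channel number at release sites, had 9.93, 10.11 and 10.10 on the KO closed side and 9.76, 9.94 and 9.92 on the KO open side. WT values were 10.13, 10.17 and 10.11 when closed and 10.00, 9.90 and 9.80 when open. The sides overlapped in KO mice and not in WT mice, with an average change of 0.20 (adjusted p = 0.15). The average changes of the 4 alpha2delta genes ran from -0.04 to 0.21.

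Cacnb4, a cytoplasmic beta subunit, had 7.28, 7.35 and 6.86 on the KO closed side and 6.99, 6.86 and 6.99 on the KO open side. WT samples had 6.59, 6.97 and 7.05 when closed and 6.62, 7.30 and 7.08 when open, so the sides overlapped in both genotypes. It changed by 0.04 on average (adjusted p = 0.94), within a range of -0.06 to 0.09 over the 3 beta genes. The 7 Cacng genes ran from -0.15 for Cacng2 to 0.25 for Cacng7 (adjusted p = 0.23).

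**Figure D3:**
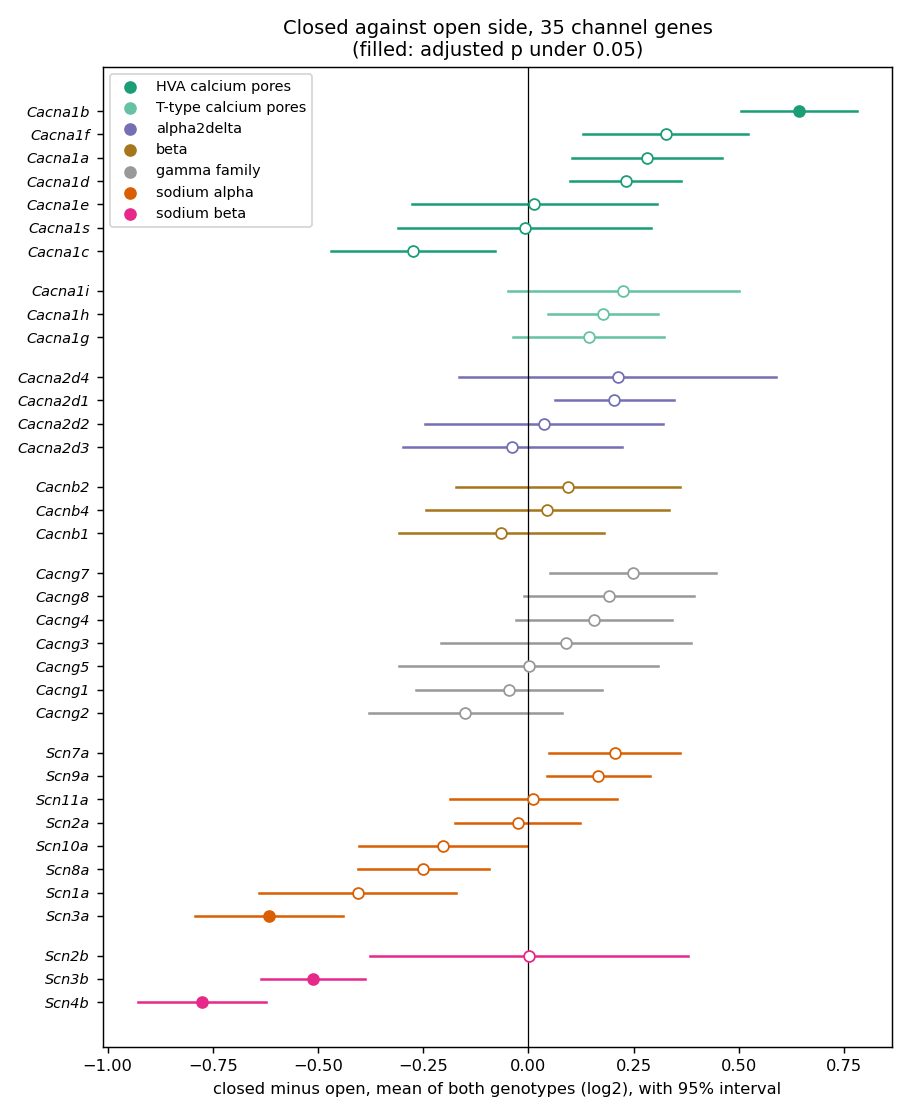
Closed minus open change on average over both genotypes (x axis, log2) of the 35 channel genes, ordered by class, with 95% intervals; HVA stands for high-voltage-activated and filled points have an adjusted p under 0.05. Filled points stand at 0.64 for Cacna1b and at -0.51, -0.62 and -0.77 for Scn3b, Scn3a and Scn4b.

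Over all 24 calcium channel genes the median average change was 0.12, with 18 positive and 6 negative. Over the 11 sodium channel genes it was -0.20, with 4 positive and 7 negative. The median over all probe sets tested was 0.00. The median size of the change, whatever its sign, was 0.18 for the 35 genes and 0.086 for all probe sets.

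Closed and open samples did not overlap, in the same direction in both genotypes, for 5 genes that were higher (Cacna1b, Cacna1d, Cacna1f, Cacna1h and Scn9a) and 3 that were lower (Scn3a, Scn3b and Scn4b). Of all probe sets, 2.66% were separated in this way with the closed side higher and 2.16% with the closed side lower.

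Most markers of OSN stage moved with these changes. Of 10 mature OSN markers, 8 were called higher on the closed side on average, against 1.66% of all probe sets. Among them were the transduction genes Cnga4 (0.40) and Adcy3 (0.29), and the median change of the 10 was 0.28. The other two, Omp and Rtp2, changed by 0.03 and -0.03 and were not called. In single genotypes 3 of the 10 were called higher in KO mice and 1 in WT mice, against 0.705% and 0.475% of all probe sets. Their summed level on the linear scale was 33612 to 33644 on the KO closed side, against 27653 to 29338 on the KO open side. It was 31807 to 33502 on the WT closed side, against 27902 to 28286 on the WT open side. Of 8 immature OSN markers, 6 were called lower on average, against 1.23% of all probe sets. Among them were Gap43 (-0.28) and Gng8 (-0.42), and the median change of the 8 was -0.27. The other 2, Dcx and Crmp1, had positive changes of up to 0.05 and were not called. In single genotypes 1 of the 8 was called lower in KO mice and 1 in WT mice, against 0.34% and 0.38% of all probe sets. Their sum was 8402 to 8669 on the KO closed side and 9457 to 10321 on the KO open side, and 8129 to 8782 on the WT closed side and 9844 to 9906 on the WT open side. Of the other 12 marker lists, globose basal cells had 1 of 4 genes called lower on average (Neurod1, -0.27) and glia 1 of 5 (Mbp, -0.31), against 1.23% of all probe sets. The others had none. The part of these shifts in the channel results was not tested.

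The 4 called channels and Scn9a were set against the OSN markers within each array. Relative to the mean of the mature OSN markers, Cacna1b changed by 0.47 in KO mice and 0.31 in WT mice. Relative to the mean of the immature OSN markers, Scn4b changed by -0.60 in KO mice and -0.49 in WT mice. Scn3a changed by -0.42 and -0.35 on that scale in KO and WT mice, and Scn3b by -0.28 and -0.28. Scn9a changed by -0.14 and -0.03 relative to the mature markers in KO and WT mice. The channels were chosen on their changes in the same arrays, so these values are a description with no test. Each channel was set against the marker list that moved in its direction. The list means include markers that changed little, such as Omp and Dcx, and which cells held the channel RNA was not measured.

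The second question was whether loss of H2be altered these channels. Between KO and WT mice, 0 of 35 genes were called on the open side and 0 on the closed side, where 0.0215% and 0.0245% of all probe sets were called. At an unadjusted p under 0.05, 0 genes passed on the open side and 1, Cacna1a, on the closed side, against 6.67% and 4.26% of all probe sets on those sides. Cacna1a was 0.27 higher in KO mice there (adjusted p = 0.999). Cacna1e, the pore of the R-type channel, had a lower mean in KO mice on both sides. It had 7.03, 6.71 and 6.48 in KO mice against 7.38, 7.24 and 6.67 in WT mice on the closed side, and 6.81, 6.58 and 6.75 in KO mice against 6.92, 7.09 and 7.27 in WT mice on the open side. KO and WT overlapped on the closed side and were apart on the open side, and the difference was -0.36 closed (adjusted p = 0.999) and -0.38 open (adjusted p = 0.78).

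Cacna1i, Cacna2d4 and Cacna1g were the others with the smallest unadjusted p in these comparisons. On the open side Cacna1i had 6.97, 6.86 and 6.74 in KO mice and 7.15, 7.64 and 6.82 in WT mice, a difference of -0.35 (adjusted p = 0.79). Cacna2d4, an alpha2delta subunit of photoreceptors, had 5.88, 5.86 and 5.19 in KO mice and 6.58, 5.93 and 5.81 in WT mice on the open side, a difference of -0.46 (adjusted p = 0.80). Both overlapped between the genotypes. On the closed side Cacna1g had 8.36, 8.26 and 8.16 in KO mice and 7.93, 8.16 and 8.03 in WT mice, which overlapped and differed by 0.22 (adjusted p = 0.999).

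Whether UNO acted differently on the channels in the 2 genotypes was tested as the difference between their changes. It was called for 0 of 35 genes and for 0% of all probe sets, and 1 gene, Cacna1a, had an unadjusted p under 0.05, against 4.01% of all probe sets. For the 4 called genes, the difference between the KO and the WT change was 0.22 for Cacna1b, -0.04 for Scn3a, 0.02 for Scn3b and -0.08 for Scn4b. The 95% interval was -0.06 to 0.49 for Cacna1b. Of the 35 genes, 28 (80%) changed in the same direction in both genotypes, against 59.4% of all probe sets.

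**Figure D4:**
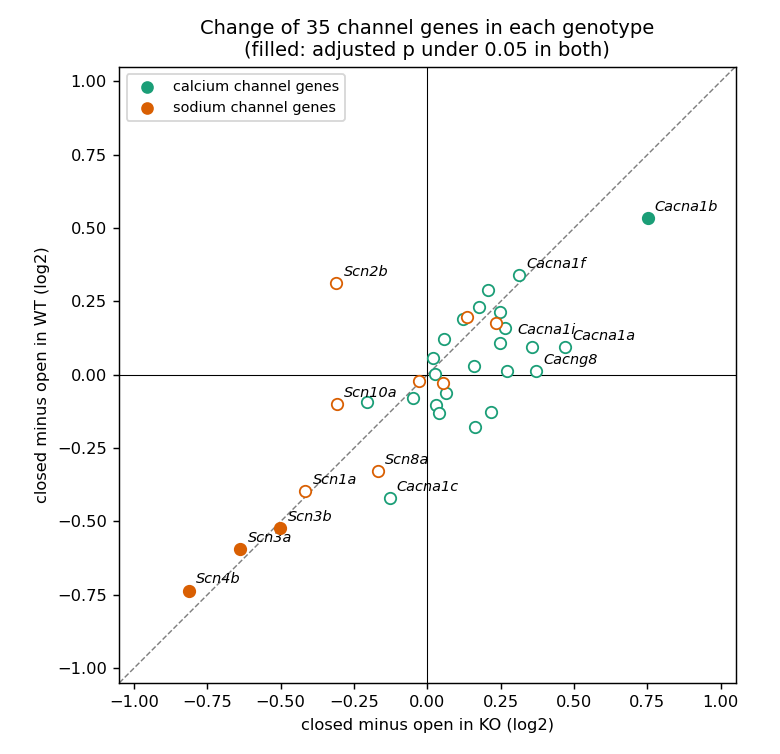
Closed minus open change in KO mice (x axis, log2) against that in WT mice (y axis, log2) for the 35 channel genes, with equality as a dashed line and filled points called in both genotypes. Scn4b, Scn3a and Scn3b lie near the line at the lower left, Cacna1b lies at 0.75 in KO mice and 0.53 in WT mice, and Scn2b lies at -0.31 in KO mice and 0.31 in WT mice.

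Partners of the channels and other calcium-handling genes were followed through 5 lists. Of 25 measured genes of calcium release, entry and removal, 2 were called lower in KO mice, in WT mice and on average. The shares of all probe sets called lower were 0.34%, 0.38% and 1.23%. Both genes carry calcium out of the cell in exchange for sodium. The exchangers Slc24a1, Slc24a3, Slc24a4, Slc24a5 and Slc8a3 had higher means on the closed side in both genotypes, and none was called. Slc24a4 had 10.86 closed and 10.63 open in KO mice, and 10.84 and 10.64 in WT mice. Slc8a2 was higher in KO mice and lower in WT mice. Slc8a1, a sodium/calcium exchanger, had 8.22, 8.37 and 8.34 on the KO closed side and 9.45, 9.51 and 9.42 on the KO open side. WT closed samples had 8.29, 8.25 and 8.41 and WT open samples 9.56, 9.44 and 9.64. Closed and open lay about as far apart in both genotypes, at -1.15 in KO mice, -1.23 in WT mice and -1.19 on average (adjusted p = 3.1e-06), and the call held with any single array left out.

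Slc24a2, an exchanger that also moves potassium, had 9.66, 9.68 and 9.46 on the KO closed side and 10.03, 10.15 and 10.04 on the KO open side. WT values were 9.58, 9.57 and 9.59 when closed and 10.19, 10.10 and 10.27 when open. The sides did not overlap, and the change was -0.47 in KO mice (adjusted p = 0.030), -0.61 in WT mice (adjusted p = 0.0090) and -0.54 on average (adjusted p = 6.4e-04). The WT call was lost without WT open 3 (adjusted p = 0.061), and the KO call when any KO array, WT open 1 or WT closed 2 was left out (adjusted p up to 0.130).

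Of 18 measured partners of calcium channels, 1 was called lower on average, against 1.23% of all probe sets, and none in a single genotype. Gem, a small GTPase that inhibits calcium channels, had 6.98, 6.61 and 6.78 on the KO closed side and 7.11, 7.39 and 7.55 on the KO open side. WT samples had 6.80, 6.89 and 6.88 when closed and 7.49, 7.05 and 7.27 when open. The sides did not overlap in either genotype. The average change was -0.49 (adjusted p = 0.025), and the call was lost when KO open 2, KO open 3, KO closed 2, KO closed 3, WT open 1, WT open 3 or any of the 3 WT closed arrays was left out (adjusted p up to 0.0694).

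**Figure D5:**
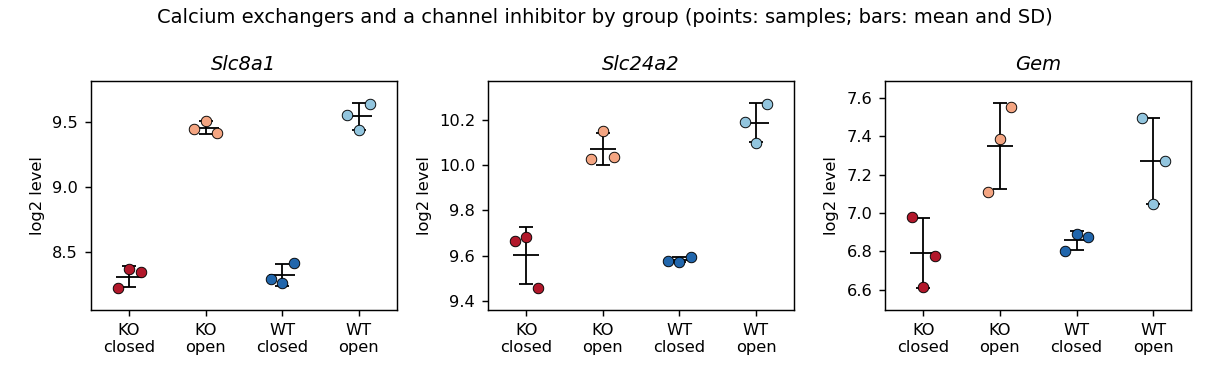
Log2 array level (y axis, a separate scale for each gene) of Slc8a1, Slc24a2 and Gem in the KO closed, KO open, WT closed and WT open groups, with the 3 samples as points and the mean and SD as bars. Every closed sample lies below every open sample of the same genotype for all 3 genes.

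No gene was called on average among 12 partners of sodium channels, 10 related pore channels or 4 AMPA receptor genes. Nrcam, an adhesion protein that gathers sodium channels, changed by -0.34 (adjusted p = 0.056) and Nedd4l, a ubiquitin ligase that removes them, by 0.23 (adjusted p = 0.11). Tpcn1, an endolysosomal pore of the same superfamily, changed by 0.36 (adjusted p = 0.059) and Unc79, a subunit of the sodium leak channel complex, by -0.24 (adjusted p = 0.22). The plasma membrane fusion protein Stx1a, which binds N-type channels, changed by -0.26 (adjusted p = 0.12). The AMPA receptor genes Gria3 and Gria1 changed by 0.19 (adjusted p = 0.16) and 0.13 (adjusted p = 0.59). Median changes were 0.05 for the sodium channel partners, -0.01 for the calcium channel partners, 0.13 for the related pores, 0.02 for the calcium-handling genes and 0.10 for the AMPA receptor genes.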

How the data were processed

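RNA of each MOE side was applied to Affymetrix arrays of the type Mouse Gene 1.0 ST, 12 in all. Per the methods and the submitters' processing notes, sketch-quantile normalization and IterPLIER summarisation in Affymetrix Expression Console gave the log2 values that the authors deposited, 1 for every probe set on every array. The genome build and probe positions are not given in the sources used here. Symbols came from the platform annotation. Of 35556 probe sets, 2941 did not exceed a mean log2 level of 5 and were left out. For the other 32615, the means of the 4 groups were estimated with limma 3.58.1 in R 4.3.3 (lmFit and eBayes) and contrasted, with two-sided tests and Benjamini-Hochberg adjustment at 0.05. Precision is limited by the number of arrays. The fit was also run on simulated data with independent noise and changes set in the WT closed group alone. Its outcome is not given here, and it did not cover the other comparisons. Sequences and gene order came from RefSeq (GRCm38.p6), and figures were drawn with matplotlib 3.10.9. Values per sample are given for channel genes called in any comparison, for the 3 with the smallest p in each side or genotype comparison and for a list by role. Members and lists were chosen with earlier results of these data known. Alternatives covered the filter, normalization, variance model, array weights, probe sets per gene, arrays in the fit, a replicate block and each array left out.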

Additional observations from a re-analysis of the deposited data

How the results depend on the processing

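On average over both genotypes, Cacna1b, Scn3a, Scn3b and Scn4b kept their direction and their call under all 20 alternatives run. The number of channel genes called there, 4 as reported, was 7 when probe sets with a mean log2 level above 7 alone were tested. It was 8 with a trended and robust variance, and 4 to 5 when an array was left out. These settings act on all probe sets, and the share of all probe sets called under each is not given here. The counts in this section, higher or lower, are therefore not a result about the channels alone. Among genes not called as reported, Cacna1d was called on average under 2 of 20 alternatives. Scn9a, Cacna1a and Cacna2d1 were each called on average under 1. In single genotypes the calls were less stable. In WT mice the count was 0 when only the WT arrays were fitted and 1, Scn4b, with the replicate block, and it ran from 1 to 4 when an array was left out. In KO mice it was 2, Cacna1b and Scn4b, when only the KO arrays were fitted, and ran from 2 to 4 when an array was left out. With the replicate block it was 3, without Scn3b (adjusted p = 0.0640). Fitting only the arrays of the genotype also ended the calls of Slc24a2 in KO mice (adjusted p = 0.155) and WT mice (0.112), and so did the replicate block (0.0956 in KO mice and 0.0527 in WT mice), which also ended the average call of Gem (adjusted p = 0.101). Counts between KO and WT mice and for the difference between the genotypes stayed at 0 throughout.

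Same-numbered closed and open samples correlated in their deviations with r of 0.05, 0.23 and 0.03 in KO mice and -0.01, 0.17 and 0.02 in WT mice. Samples of different numbers had r of -0.19 to 0.13 in KO mice and -0.11 to 0.07 in WT mice. Not every sample correlated best with its own number, but deviations from a mean of 3 samples cannot settle whether numbers are pairs. Numbers were not treated as pairs, and the replicate block stands as an alternative alone.

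Values that changed sign were all near 0 and not called. The KO change minus the WT change turned to -0.018 for Scn3b with quantile normalization and -0.021 with median centring, and ran from -0.018 (without WT closed 1) to 0.075 when an array was left out. It ran from -0.123 to 0.068 for Scn3a and turned positive without KO closed 2 (0.015) or WT open 2. For Scn4b it ran from -0.151 to 0.000612, the last without WT closed 3. Cacnb4 ran on average from -0.051 (without WT open 1) to 0.120, and was also negative without KO closed 2 (-0.0021) and WT closed 3 (-0.0015). With 3 arrays a group, the 95% interval typically reached 0.293 to either side in 1 genotype, 0.207 on average and 0.414 for the difference between the genotypes.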
